A study of Mus musculus with 6 samples.

Results

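The nuclear-encoded genes of oxidative phosphorylation were taken from the expression table by symbol: names starting with Nduf (complex I), Sdha to Sdhd (complex II), names starting with Uqcr and Cyc1 (complex III), names starting with Cox4 to Cox8 (complex IV) and names starting with Atp5 (complex V). The rule found 61 of the 9120 genes listed. They were 31 genes of complex I, 3 of complex II, 7 of complex III, 7 of complex IV and 13 of complex V. The mouse annotation GENCODE M21 holds 95 protein-coding gene models with such names. The other 34 are not in the expression table and are not analysed here. They are 15 of 46 in complex I, 1 of 4 in complex II and 2 of 9 in complex III. In complex IV they are 11 of 18 and in complex V 5 of 18. Medians and sums by complex therefore cover only the listed genes.

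RNA sequencing was done on MPC5, a conditionally immortalised mouse podocyte line, in 6 libraries. The 3 knockdown libraries came from cells transfected with small interfering RNA (siRNA) against Mettl3, and the 3 control libraries from cells that received a scrambled siRNA. Every library came from cells in high glucose (30 mM), so no comparison with normal glucose was possible among them. Cells of both groups had been expanded at 33 °C with interferon gamma and then kept at 37 °C without it for 7 days, and the transfection lasted 6 h. Replicates are numbered 1 to 3 in each group, and the series' design text calls them biological. All are cultures of 1 line, and p-values measure only the spread between these libraries.

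Oxidative phosphorylation makes ATP in the inner mitochondrial membrane. Complexes I and II pass electrons from NADH and succinate to ubiquinone, complex III passes them to cytochrome c, and complex IV passes them to oxygen. Complexes I, III and IV pump protons across the membrane as they do so, and complex V, the ATP synthase, makes ATP from their return flow. Most subunits are encoded in the nucleus and imported, a few are encoded in mitochondrial DNA, and podocytes use both this route and glycolysis for ATP.

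Values are FPKM (fragments scaled to transcript length in kilobases and to the mapped fragments of the library), so levels of different genes are set side by side below. The table holds no counts, and depth is therefore unknown. The libraries' FPKM totals ranged from 173721 to 176526, with 74 to 118 genes at 0 in each. The targeted gene Mettl3 (catalytic subunit of the methyltransferase that places N6-methyladenosine in mRNA) had 3.68, 3.85 and 3.90 FPKM in knockdown replicates 1 to 3, against 5.87, 6.34 and 5.75 FPKM in control replicates 1 to 3. All 3 knockdown libraries lay below all 3 controls (exact permutation test, two-sided, p = 0.1, the smallest p that 3 libraries against 3 allow). Of 20 podocyte markers 9 were in the table, and they summed to between 243 and 254 FPKM in knockdown libraries and between 248 and 272 FPKM in controls. Of the 7 that were tested, 0 were called in knockdown against control and 2 (28.6%) had an unadjusted limma p under 0.05, Vegfa and Dach1. Vegfa averaged 49.5 ± 2.2 FPKM in knockdown libraries and 63.7 ± 3.4 FPKM in controls, and Dach1 4.72 ± 1.3 FPKM in knockdown libraries and 3.10 ± 0.44 FPKM in controls (SD, n = 3 each), neither with overlapping groups. Actn4 averaged 109 ± 0.95 FPKM in knockdown libraries and 109 ± 4.7 FPKM in controls (SD, n = 3 each), whereas no library exceeded 0.71 FPKM for Wt1 or 1.25 FPKM for Synpo, and the slit diaphragm gene Nphs1 is not analysed here. Of 12 mesangial or fibroblast markers 6 were in the table and summed to between 3575 and 4305 FPKM in knockdown libraries and between 3733 and 4250 FPKM in controls, nearly all of it S100a4. Of these 6, 0 were called; Des averaged 1.58 ± 0.13 FPKM in knockdown libraries and 1.09 ± 0.23 FPKM in controls, without overlap, and Pdgfra 1.48 ± 0.44 FPKM in knockdown libraries and 1.95 ± 0.60 FPKM in controls, with overlap. The part of these markers in the members' values was not tested. Endothelial markers had 0 of 9 in the table, and the only tubule and immune markers there, Aqp1 and Csf1r, reached at most 1.53 and 1.10 FPKM in any library. In RNA from whole cultures, fewer cells of a type and less RNA per cell cannot be told apart.

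The coding sequences of the 2 members that were listed at 0 in the most libraries are shown to let their length be seen beside the zeros described further on. Atp5e encodes the epsilon subunit of the ATP synthase and lies at chr2:174461072-174464105 (GRCm38, minus strand). Ndufa1 encodes a small accessory subunit of complex I and lies at chrX:37187588-37191163 (minus strand). Both are printed in full from start codon to stop codon, 159 and 213 bases long, from GENCODE M21.
Atp5e: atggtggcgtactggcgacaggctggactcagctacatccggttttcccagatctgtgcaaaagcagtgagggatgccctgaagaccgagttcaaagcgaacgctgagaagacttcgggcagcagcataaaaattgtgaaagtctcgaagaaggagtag
Ndufa1: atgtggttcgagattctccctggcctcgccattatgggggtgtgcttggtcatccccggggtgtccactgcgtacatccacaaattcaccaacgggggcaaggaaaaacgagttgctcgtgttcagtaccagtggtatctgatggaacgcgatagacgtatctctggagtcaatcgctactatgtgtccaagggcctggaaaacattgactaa

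The members spanned a wide range of levels. Cox8a, a small subunit of complex IV, was the most abundant member, with 189, 176 and 199 FPKM in knockdown replicates 1 to 3 and 218, 206 and 196 FPKM in control replicates 1 to 3. It was followed by Atp5k (mean 114 FPKM over the 6 libraries), Atp5b (99.9 FPKM), Atp5g3 (86.2 FPKM) and Cox5a (80.1 FPKM). The ranges of neighbours in this order overlapped, Atp5k at 99.6 to 122 FPKM and Atp5b at 92.2 to 107 FPKM, while Cox8a lay above all others in every library. These 5 genes held 39.9% of the summed FPKM of the 61 members. Mean level exceeded 50 FPKM for 8 members and was under 5 FPKM for 21, and the median member mean was 8.34 FPKM, against 5.49 FPKM over all genes listed.

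**Figure D1:**
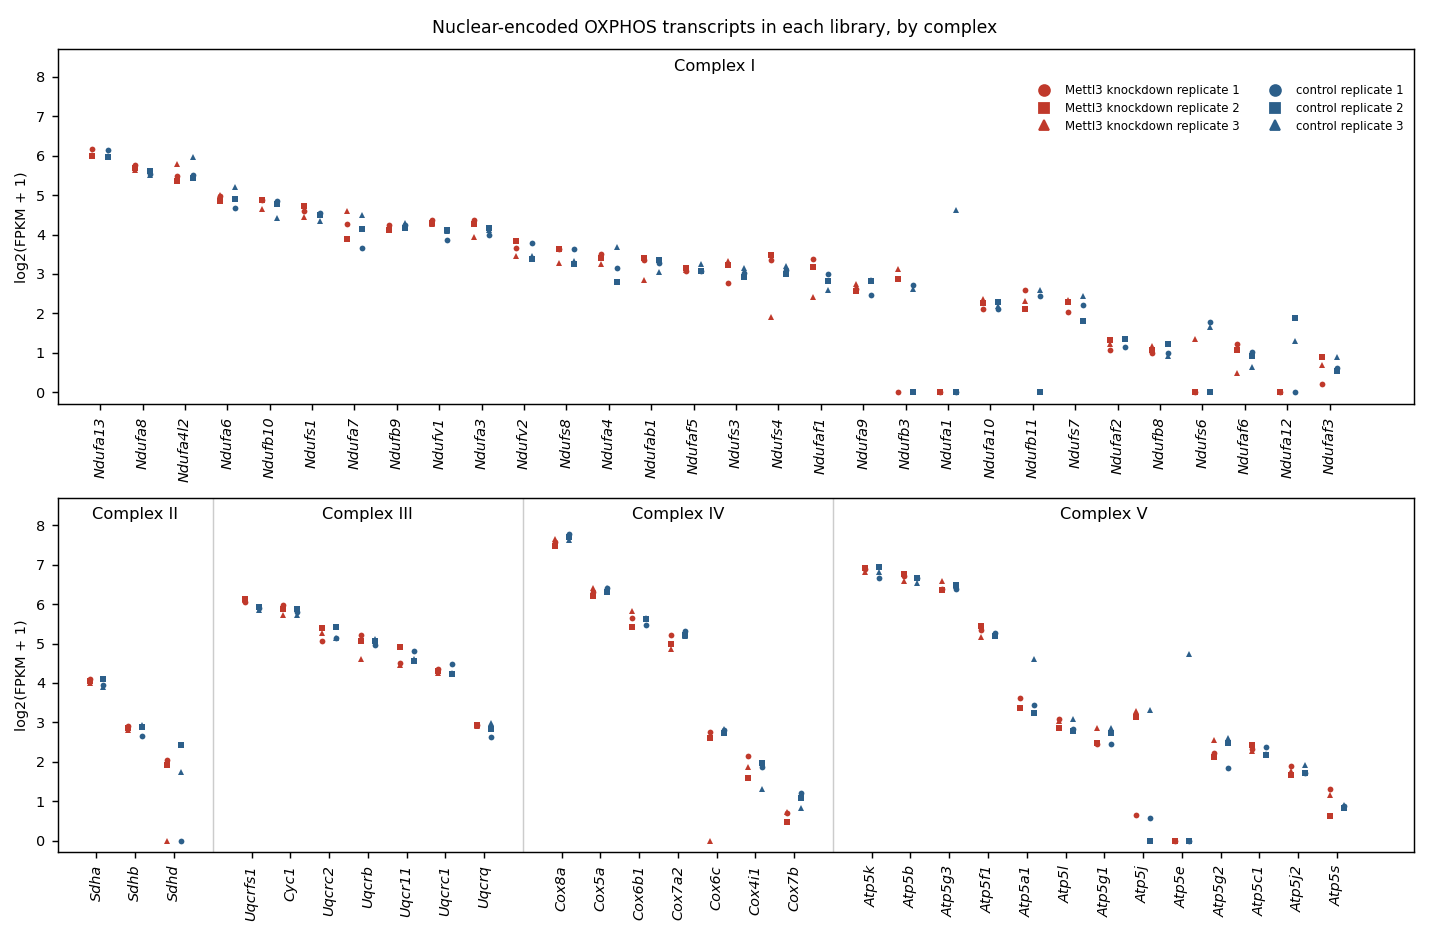
Level of each member shown in each of the 6 libraries as log2(FPKM + 1), grouped by complex; colours mark knockdown and control libraries and symbols mark replicates 1 to 3. Within complexes I, IV and V the member means spread over more than 100 fold, while most members had 6 closely spaced points.

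Genes grouped under the same complex were not listed at like levels. The highest mean over the lowest was 113-fold in complex I (Ndufa13 at 65.4 FPKM, the assembly factor Ndufaf3 at 0.58 FPKM). Leaving assembly factors aside, the lowest in complex I was Ndufa12 at 0.69 FPKM, which was listed at 0 in 4 libraries. The ratio was 7.22-fold in complex II, 9.98-fold in complex III, 245-fold in complex IV and 120-fold in complex V. The lowest gene grouped with complex V by name was Atp5s at 0.95 FPKM, and the next lowest was Atp5j2 at 2.44 FPKM. Complex III was the most even of the larger complexes, with Uqcrfs1, the Rieske iron-sulfur protein, at 63.0 FPKM, the cytochrome c1 gene Cyc1 at 56.0 FPKM, Uqcrc1 at 18.9 FPKM and the lowest, Uqcrq, at 6.32 FPKM. In complex II, Sdha, the flavoprotein subunit, averaged 15.2 FPKM and Sdhb, the iron-sulfur subunit, 6.15 FPKM. In complex IV, Cox6b1 averaged 47.8 FPKM and Cox7a2 34.3 FPKM. Cox4i1, the widespread isoform of subunit IV, averaged only 2.52 FPKM and Cox7b 0.81 FPKM. Cox4i1 overlaps a second protein-coding gene model, Gm20388, on its own strand, and the sources used here do not say how reads were divided between them.

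Paralogues also differed in level. The genes Atp5g1, Atp5g2 and Atp5g3 encode the same mature membrane subunit c of the ATP synthase, each with its own import sequence. Atp5g3 averaged 86.2 FPKM, whereas Atp5g1 averaged 5.25 FPKM and Atp5g2 4.03 FPKM. The ranges over the 6 libraries were 80.4 to 95.6 FPKM for Atp5g3, 4.42 to 6.2 FPKM for Atp5g1 and 2.61 to 5.11 FPKM for Atp5g2, so Atp5g3 stood apart while Atp5g1 and Atp5g2 overlapped. Ndufa4l2, a paralogue of Ndufa4 known as a target of hypoxia-inducible factor, averaged 47.8 FPKM, against 9.03 FPKM for Ndufa4. The Ndufa4 protein is now placed in complex IV, but both genes are grouped here with complex I by name.

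Near-identical copies bear on such levels, since reads can be split between a gene and its copies. A copy of at least 90% identity over at least 80% of the coding sequence was found elsewhere in the GENCODE M21 transcripts for 21 of the 61 members, 8 in complex I, 3 in complex III, 3 in complex IV and 7 in complex V. Atp5l had 14 such copies, 13 of them pseudogenes. Atp5g1, Cox7b and Uqcrb had 4 each, all pseudogenes. The levels of these members are uncertain. No copy was itself among the listed genes. Among the paralogues above, Atp5g2 and Ndufa4 had 2 copies each, whereas Atp5g3 and Ndufa4l2 had 0. The levels of Atp5g2 and Ndufa4 are therefore uncertain too. The part of copies in the differences between paralogues was not tested. The median mean level was 6.32 FPKM for the 21 members with a copy and 13.6 FPKM for the 40 without. Members with a copy also had shorter coding sequences (median 336 bases, against 580.5 bases). Of them 5 of 21 were at 0 in at least 1 library, against 4 of 40 without a copy. Whether the copies set the difference in level was not tested. Copies did not go with low levels in every case, since Atp5k (1 copy) and Cox5a (1 copy) were among the 5 most abundant members.

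Of the members, 9 were listed at 0 in at least 1 library (14.8%, against 2.92% of all genes matched to the annotation). Atp5e and Ndufa1 were at 0 in 5 libraries and were then listed at 25.8 and 23.5 FPKM in control replicate 3 alone. Ndufa12, an accessory subunit of complex I, was at 0 in all 3 knockdown libraries and in control replicate 1, and at 2.70 and 1.46 FPKM in control replicates 2 and 3. For these 3 genes the knockdown libraries stood at 0 throughout, but so did 1 or 2 of the controls. Every listed gene averages over 0.5 FPKM in at least 1 group, and these 3 do so only in the controls. A gene that every respiring cell uses can be listed at 0 here through a failed estimate, so a 0 is not read as absence. The cause of the zeros was not tested.

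The other 6 had 0 in 1 to 3 libraries with no common pattern by group. Ndufs6 had 0, 0 and 1.53 FPKM in knockdown replicates 1 to 3, against 2.43, 0 and 2.15 FPKM in the controls. Ndufb3 had 0, 6.29 and 7.70 FPKM in knockdown replicates, against 5.54, 0 and 5.18 FPKM in controls. Sdhd, a membrane anchor of complex II, had 3.15, 2.77 and 0 FPKM in knockdown replicates, against 0, 4.34 and 2.36 FPKM in controls. Each of these 3 genes was at 0 in libraries of both groups. Atp5j, coupling factor 6 of the ATP synthase, had 0.563, 7.79 and 8.83 FPKM in knockdown replicates, against 0.477, 0 and 8.87 FPKM in controls. Cox6c was at 0 only in knockdown replicate 3, with 5.11 to 6.09 FPKM in the other 5 libraries. Ndufb11 was at 0 only in control replicate 2, with 3.32 to 5.09 FPKM elsewhere. By library, 5, 4 and 5 members were at 0 in knockdown replicates 1 to 3 and 4, 6 and 0 in control replicates 1 to 3.

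**Figure D2:**
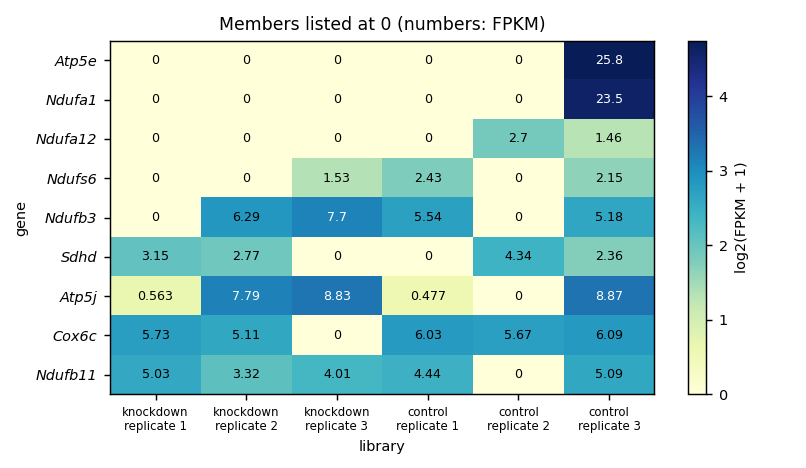
FPKM of the 9 members listed at 0 in at least 1 library, 1 row per gene and 1 column per library, with knockdown replicates 1 to 3 left of control replicates 1 to 3; colour gives log2(FPKM + 1). Atp5e and Ndufa1 are above 0 only in control replicate 3, the only library with none of the 9 at 0.

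The members listed at 0 were short genes. Their longest annotated transcripts had a median of 763 bases (range 419 to 1231), against 1112 bases (371 to 4715) for the 52 members above 0 in all libraries. Among members with a longest transcript of up to 600 bases, 2 of 10 (20%) were at 0 somewhere, against 19.5% of all 154 listed genes of that length. Above 600 and up to 1000 bases it was 5 of 19 members (26.3%), against 12.8% of all 345 genes. Above 1000 and up to 2000 bases it was 2 of 25 members (8%), against 6.76% of 1657 genes, and above 2000 bases 0 of 7 members, against 1.15% of 6954 genes. Short length did not always go with a 0: Atp5k had the shortest longest transcript of all members (371 bases) and was never below 99.6 FPKM. Across the 61 members, mean level and transcript length had a Pearson r of -0.14 and a Spearman rho of -0.12, a description over genes that share the same 6 libraries.

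**Figure D3:**
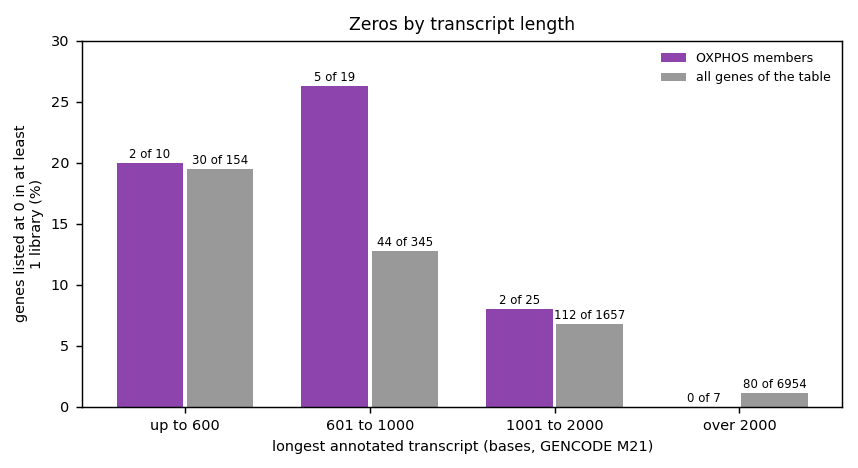
Share of genes listed at 0 in at least 1 library (%, bars from 0) by length of the longest annotated transcript in bases, for the members and for all genes of the table. The members' share was 20% up to 600 bases and 26.3% above 600 and up to 1000 bases, against 19.5% and 12.8% over all genes.

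The main comparison set the 3 knockdown libraries against the 3 controls. No member changed past the threshold, which is a limma adjusted p under 0.05 over all 8047 genes tested. The targeted gene Mettl3 did not pass this threshold either, although its libraries did not overlap. Its log2 fold change (knockdown minus control) was -0.54 (SE 0.10, 95% interval -0.77 to -0.31). A member that was not called is therefore not read as unchanged. Of the 61 members 55 passed the filter on low values (at least 1 FPKM in 3 or more libraries), and 0 of them were called, as were 0% of all genes tested, the smallest limma adjusted p being 0.134 over all genes and 0.998 among members. Without adjustment, 2 members had a limma p under 0.05, Ndufv1 and Uqcrfs1, which is 3.64% of those tested, against 4.55% of all genes. The log2 fold change (knockdown minus control, of FPKM + 1) was above 0 for 35 members and below 0 for 20, with a median of 0.05 (0.02 without control replicate 1), against 0.02 over all genes, of which 54.7% were above 0. For 39 of the 55 members (70.9%) the 95% interval lay within 0.5 of 0 on the log2 scale, against 61.9% of all genes. The 6 members that did not pass the filter were Ndufa1, Ndufa12, Ndufaf3, Cox7b, Atp5e and Atp5s.

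In complex I, which takes electrons from NADH, 20 of 28 members tested lay above 0 and 8 below. The median log2 fold change was 0.07 (0.02 without control replicate 2). All 7 members of its catalytic core, Ndufs1 and Ndufv1 among them, had a log2 fold change above 0, with a median of 0.10 and a range from 0.06 to 0.28. Accessory subunits had 11 above and 6 below, and assembly factors 2 above and 2 below. Ndufv1, the flavoprotein that binds NADH (chr19:4007497-4012806, GRCm38, minus strand), had 19.6, 18.5 and 18.3 FPKM in knockdown replicates 1 to 3, against 13.6, 16.3 and 16.1 FPKM in control replicates. Every knockdown library lay above every control. It averaged 18.8 ± 0.68 FPKM in knockdown libraries and 15.3 ± 1.5 FPKM in controls (SD, n = 3 each). The log2 fold change was 0.28 (SE 0.10, 95% interval 0.05 to 0.52, limma adjusted p = 0.998).

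Ndufa8, an accessory subunit of complex I, was the other complex I gene whose libraries did not overlap, with 53.8, 50.5 and 48.7 FPKM in knockdown replicates, against 45.5, 47.9 and 44.4 FPKM in controls. Its log2 fold change was 0.15 (SE 0.08, limma adjusted p = 0.998). Ndufs1, the largest core subunit, had 23.3, 25.5 and 21 FPKM in knockdown replicates, against 22.4, 21.6 and 19.2 FPKM in controls, and these groups overlapped (log2 fold change 0.13, SE 0.11). Ndufb10 averaged 27.0 ± 2.3 FPKM in knockdown libraries and 24.8 ± 4.0 FPKM in controls (SD, n = 3 each), and its groups overlapped. Ndufs4, an accessory subunit known from Leigh syndrome, had 9.27, 10.2 and 2.72 FPKM in knockdown replicates, against 7.62, 6.98 and 8.16 FPKM in controls, so that knockdown replicate 3 alone was low. Ndufs4 was picked out after its values were seen. Summed over the 26 complex I members above 0 in every library, level was 435 ± 13 FPKM in knockdown libraries and 416 ± 15 FPKM in controls, with overlapping libraries.

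Complex II had 2 of 3 members above 0 and 1 below, with a median of 0.03 (-0.06 without control replicate 1). Sdha had 16.2, 15.6 and 15.1 FPKM in knockdown replicates, against 14.4, 16.1 and 13.8 FPKM in controls (log2 fold change 0.08, SE 0.09). Sdhb averaged 6.22 ± 0.29 FPKM in knockdown libraries and 6.09 ± 0.75 FPKM in controls (SD, n = 3 each). Both overlapped between groups, and Sdhd carries the zeros given above.

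In complex III, 4 of 7 members lay above 0, and the median was 0.01 on the log2 scale (-0.04 without control replicate 3, 0.10 without knockdown replicate 3). Uqcrfs1 (chr13:30540308-30545362, minus strand) had 65.5, 69.6 and 67.6 FPKM in knockdown replicates 1 to 3, against 58.5, 60.3 and 56.5 FPKM in control replicates. The lowest knockdown library exceeded the highest control. The log2 fold change was 0.21 (SE 0.07, 95% interval 0.04 to 0.38, limma adjusted p = 0.998). Its partners differed less: Cyc1 averaged 57.2 ± 5.3 FPKM in knockdown libraries and 54.9 ± 2.7 FPKM in controls, and Uqcrc1, a core protein, 18.7 ± 0.78 FPKM in knockdown libraries and 19.1 ± 2.0 FPKM in controls (SD, n = 3 each). Uqcrq, a small accessory subunit, averaged 6.56 ± 0.12 FPKM in knockdown libraries and 6.08 ± 0.86 FPKM in controls. Uqcrb had 36.1, 32.7 and 23.6 FPKM in knockdown replicates, against 30.4, 32.2 and 33.7 FPKM in controls, and its log2 fold change of -0.08 (SE 0.16) rested on the low knockdown replicate 3, becoming 0.10 without that library.

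Complex IV, the oxidase at the end of the chain, was the only complex with a median log2 fold change below 0, at -0.10, with 2 of 6 members above 0 and 4 below. Cox7a2 (chr9:79755361-79759878, minus strand) had 36.1, 30.6 and 27.9 FPKM in knockdown replicates, against 39.2, 36.5 and 35.6 FPKM in controls. Its groups overlapped by a single library, knockdown replicate 1, and the log2 fold change was -0.23 (SE 0.11, 95% interval -0.49 to 0.03). Cox8a averaged 188 ± 12 FPKM in knockdown libraries and 207 ± 11 FPKM in controls (SD, n = 3 each), and its log2 fold change was -0.14 (SE 0.08, 95% interval -0.33 to 0.06). Cox5a averaged 78.4 ± 5.6 FPKM in knockdown libraries and 81.9 ± 2.8 FPKM in controls, Cox6b1 48.7 ± 6.7 FPKM in knockdown libraries and 46.8 ± 3.0 FPKM in controls, and Cox4i1 2.69 ± 0.71 FPKM in knockdown libraries and 2.34 ± 0.78 FPKM in controls. Each of these 3 overlapped between groups. Summed over the 6 members above 0 in every library, complex IV reached 357, 323 and 369 FPKM in knockdown replicates 1 to 3, against 388, 374 and 366 FPKM in controls, so 2 knockdown libraries lay below all controls and knockdown replicate 3 lay above control replicate 3.

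Cox7b did not pass the filter, yet its libraries did not overlap: 0.625, 0.394 and 0.646 FPKM in knockdown replicates, against 1.31, 1.10 and 0.761 FPKM in controls. With no filter its log2 fold change was -0.40 (SE 0.15, limma adjusted p = 0.998). Low values and 4 near-identical copies limit what can be said of it.

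In complex V, 7 of 11 members lay above 0, and the median was 0.06 on the log2 scale (-0.005 without control replicate 1). Atp5b, the catalytic beta subunit, had 104, 107 and 95.5 FPKM in knockdown replicates, against 101, 100 and 92.2 FPKM in controls (log2 fold change 0.06, SE 0.08). Replicate 3 was the lowest library of both groups. Atp5f1, a peripheral stalk subunit, averaged 39.0 ± 3.9 FPKM in knockdown libraries and 36.3 ± 0.87 FPKM in controls, and Atp5c1, the gamma subunit of the rotor, 4.07 ± 0.29 FPKM in knockdown libraries and 3.76 ± 0.35 FPKM in controls (SD, n = 3 each). Atp5k, a membrane subunit, averaged 117 ± 4.2 FPKM in knockdown libraries and 111 ± 11 FPKM in controls. Atp5a1, the alpha subunit, had 11.3, 9.21 and 9.32 FPKM in knockdown replicates, against 9.92, 8.51 and 23.3 FPKM in controls. Its log2 fold change of -0.32 (SE 0.34) turned to 0.10 without control replicate 3, the single high library. The subunit c genes differed little, Atp5g3 at 86.4 ± 8.1 FPKM in knockdown libraries and 85.9 ± 3.3 FPKM in controls (log2 fold change 0.00, 95% interval -0.21 to 0.22).

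**Figure D4:**
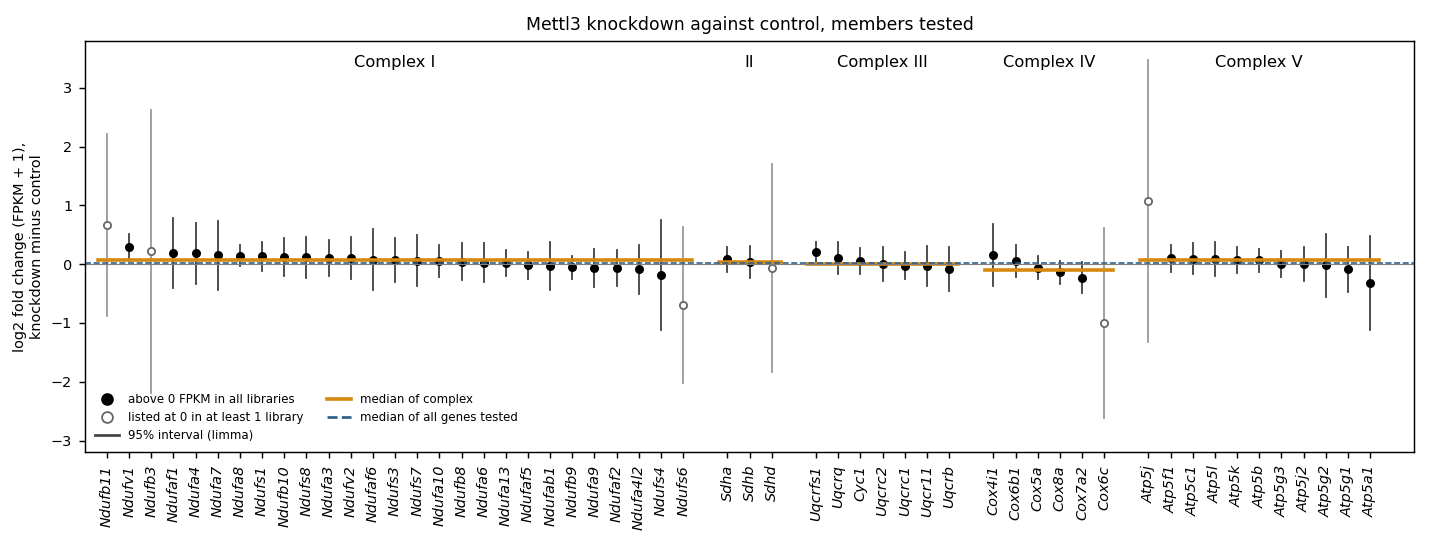
Log2 fold change of FPKM + 1 (knockdown minus control) with its 95% interval from limma for the tested members shown, by complex; filled points were above 0 FPKM in all libraries and open points were listed at 0 in at least 1. Horizontal bars give the median over all tested members of each complex, 0.07 in complex I and -0.10 in complex IV, and most intervals cross 0.

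Counting members whose 3 knockdown libraries all lay above the 3 controls gave 3 of 55 (5.45%), namely Ndufa8, Ndufv1 and Uqcrfs1, against 6.06% of all genes tested. In the other direction it gave 0 of 55, against 4.01% of all genes. Both shares are near or under those of the whole table, so the members did not stand out by this count.

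Replicate 3 of both groups carries a code of another form in the sample titles than replicates 1 and 2, whose codes begin with HG, and the labels do not say what the codes stand for. The knockdown difference was therefore also taken within each code form. Among replicates 1 and 2 (2 libraries against 2), 38 of the 55 members lay above 0 with a median log2 fold change of 0.07. In the replicate 3 pair (1 library against 1, with no test), 23 of 55 lay above 0 with a median of -0.04. Of the members, 22 of 55 (40%) had the same direction in both, against 56.6% of all genes tested. Complex I had 21 of 28 above 0 in replicates 1 and 2, with a median of 0.10, and 12 of 28 in the replicate 3 pair, with a median of -0.10, and its catalytic core 7 of 7 and 5 of 7. Complex IV had 0 of 6 above 0 in replicates 1 and 2, with a median of -0.10, and 4 of 6 in the replicate 3 pair, with a median of 0.02. Complex V had 9 of 11 above 0 in replicates 1 and 2 and 4 of 11 in the replicate 3 pair.

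Ndufv1, Uqcrfs1, Cox7a2 and Ndufa8, the members with the smallest unadjusted limma p in knockdown against control, kept their direction in both. Ndufv1 had a log2 difference of 0.34 in replicates 1 and 2 and 0.17 in the replicate 3 pair. Uqcrfs1 had 0.18 in replicates 1 and 2 and 0.26 in the replicate 3 pair, Ndufa8 0.16 and 0.13, and Cox7a2 -0.18 and -0.34. Cox8a, the next by p, did not: it had -0.22 in replicates 1 and 2 and 0.02 in the replicate 3 pair.

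**Figure D5:**
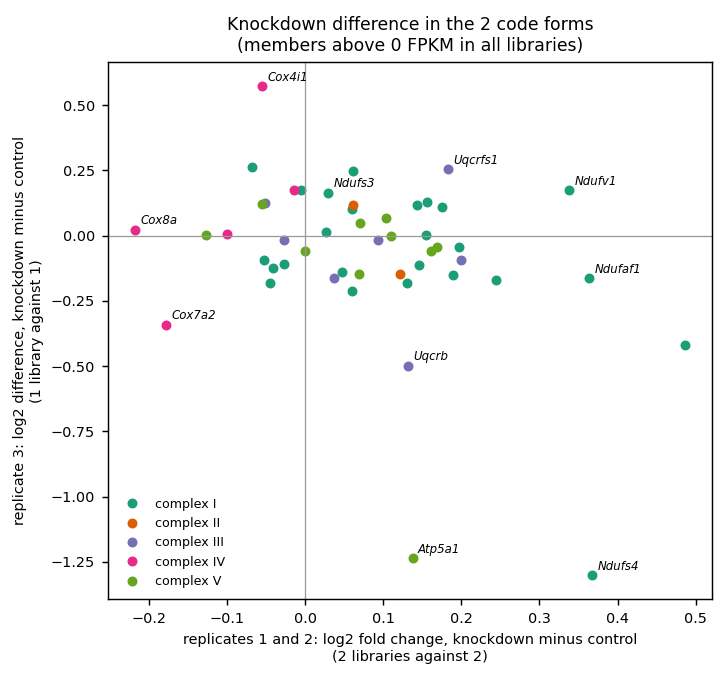
Knockdown minus control difference of log2(FPKM + 1) in replicates 1 and 2 (x axis, 2 libraries against 2) and in the replicate 3 pair (y axis, 1 library against 1) for members above 0 FPKM in all libraries, coloured by complex. On the x axis 34 of these 49 members lie above 0, on the y axis 22 of 49, and 19 of 49 have the same sign on both axes.

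Replicate 3 of both groups was also set against replicates 1 and 2 with group in the fit. In this contrast 4 of the 55 members were called (7.27%), against 18.8% of all genes tested. Of the members 1 was higher in replicate 3 (6.23% of all genes were) and 3 were lower (12.6% of all genes were). All 4 are complex I genes by name, 14.3% of the 28 tested in that complex. Which members were called varied with the setting: with median-ratio scaling they were Atp5g1, Ndufa4l2 and Ndufa7. The median over members was -0.02 on the log2 scale and that over all genes -0.06. Some cell type markers were also called in this contrast. They were 2 of 6 mesangial or fibroblast markers (33.3%) and 1 of 7 podocyte markers (14.3%), against 18.8% of all genes tested. Acta2 averaged 57.8 FPKM in the replicate 3 libraries and 16 FPKM in the others (log2 difference 1.80, limma adjusted p = 0.000383), Pdgfrb 29.8 FPKM in the replicate 3 libraries and 36 FPKM in the others (-0.26, limma adjusted p = 0.0245), and the podocyte gene Kirrel 14.7 FPKM in the replicate 3 libraries and 21.4 FPKM in the others (-0.52, limma adjusted p = 0.00775). Their part in the members' values was not tested. The 4 complex I genes called are named because they are few, some of them after their values were seen.

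Ndufa4l2 (chr10:127514967-127517154, plus strand) had 54.5 FPKM in knockdown replicate 3 and 61.8 FPKM in control replicate 3, against 43.8 and 40.2 FPKM in knockdown replicates 1 and 2 and 44.3 and 42.3 FPKM in control replicates 1 and 2. Both replicate 3 libraries lay above the other 4. It was higher in replicate 3 by 0.44 on the log2 scale (SE 0.06, limma adjusted p = 0.00785). It overlaps Shmt2 on the opposite strand, and the sources used here do not say whether reads were counted by strand. Without control replicate 3 it lost its call (limma adjusted p = 0.0897), whereas every other single library could be left out.

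The 3 genes lower in replicate 3 were Ndufb10, Ndufab1 and Ndufaf1. Ndufb10, an accessory subunit, had 24.3 FPKM in knockdown replicate 3 and 20.3 FPKM in control replicate 3, against 26.4 to 28.4 FPKM in the other 4 libraries (log2 difference -0.31, SE 0.07, limma adjusted p = 0.0275). Ndufab1, the mitochondrial acyl carrier protein, had 6.2 FPKM in knockdown replicate 3 and 7.33 FPKM in control replicate 3, against 8.63 to 9.52 FPKM in the others (log2 difference -0.39, SE 0.09, limma adjusted p = 0.0345). Ndufaf1, an assembly factor of complex I, had 4.36 FPKM in knockdown replicate 3 and 5 FPKM in control replicate 3, against 6.12 to 9.36 FPKM in the others (log2 difference -0.59, SE 0.14, limma adjusted p = 0.0361). In each, both replicate 3 libraries lay below the other 4. These calls were near the threshold: 1 member was called without knockdown replicate 1 and 2 without knockdown replicate 2 or 3, and none of these 3 genes was called once libraries were scaled to their median ratio. Closest to the threshold among the rest was Ndufaf6 (limma adjusted p = 0.053). It had 0.40 FPKM in knockdown replicate 3 and 0.56 FPKM in control replicate 3, against 0.89 to 1.34 FPKM elsewhere. Next was Ndufa7, which was higher in replicate 3 (log2 difference 0.55, SE 0.16, limma adjusted p = 0.0569).

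What the upstream sequences of the members share was described with 3 short motifs known from promoters of respiratory genes, searched on both strands in the 250 bases before each RefSeq start (GRCm38.p6). The table held 47 of the 61 members. The NRF1 letters GCATGCGC occurred in 6 of the 47 (12.8%), against 5.48% of the 7011 listed genes with such a sequence and 2.56% of all 27025. The ETS letters CCGGAAG, which the GABP factor binds, occurred in 8 members (17%), against 17.1% of listed genes. The YY1 letters AAGATGGC occurred in 1 member (2.13%), against 2.55% of listed genes. Atp5g2 and Atp5k each hold the NRF1 letters on both strands as an overlapping palindrome near the start. Their upstream sequences are shown because Atp5k was among the 5 most abundant members and Atp5g2 was listed low. Both genes have near-identical copies elsewhere, so their levels are uncertain. Capitals mark the palindrome. It begins 42 bases before the RefSeq start in Atp5g2 (chr15:102671048-102671297, minus strand) and 50 bases before it in Atp5k (chr5:108434400-108434649, minus strand). By the listed gene spans, the Atp5g2 window lies inside its gene (chr15:102662864-102672352). The Atp5k window partly overlaps its gene (chr5:108433244-108434448).
Atp5g2: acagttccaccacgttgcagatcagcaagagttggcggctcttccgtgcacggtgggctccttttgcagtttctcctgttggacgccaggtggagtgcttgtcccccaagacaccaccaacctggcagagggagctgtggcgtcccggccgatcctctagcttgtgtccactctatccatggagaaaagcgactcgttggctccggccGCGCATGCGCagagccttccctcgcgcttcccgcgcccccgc
Atp5k: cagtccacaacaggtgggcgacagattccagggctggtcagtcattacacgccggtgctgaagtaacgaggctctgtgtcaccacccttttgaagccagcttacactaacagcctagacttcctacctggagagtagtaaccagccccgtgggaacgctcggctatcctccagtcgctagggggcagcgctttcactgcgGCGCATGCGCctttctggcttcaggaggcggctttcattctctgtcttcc

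The 2 genes with the same letters averaged 3.96 ± 0.81 FPKM (Atp5g2) and 117 ± 4.2 FPKM (Atp5k) in knockdown libraries and 4.10 ± 1.3 FPKM (Atp5g2) and 111 ± 11 FPKM (Atp5k) in controls (SD, n = 3 each). Neither Atp5g1 nor the abundant Atp5g3 held any of the 3 motifs in this window, which says only that these letters are not there. The genes for 2 of the factors were themselves lower in replicate 3: Nrf1 averaged 2.04 FPKM in the replicate 3 libraries and 3.51 FPKM in the others (log2 difference -0.56, limma adjusted p = 0.023), and Gabpa averaged 4.41 FPKM in the replicate 3 libraries and 6.66 FPKM in the others (-0.49, limma adjusted p = 0.0199). They were the 2 called of 11 regulators of mitochondrial biogenesis tested (18.2%, against 18.8% of all genes tested). Yy1 was not called (-0.07, limma adjusted p = 0.582). Gabpa overlaps Atp5j on the opposite strand. The part of these regulators in the members' values was not tested.

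Other mitochondrial gene lists were read from the same fit. Of 53 further nuclear respiratory genes (assembly factors and electron carriers) 33 were tested, and 0 were called in knockdown against control (4, or 12.1%, at an unadjusted limma p under 0.05, against 4.55% of all genes). Of these 33, 23 lay above 0 and 10 below, and their median was 0.06. The smallest p among them was that of Sco1, a copper chaperone for complex IV, with 3.36, 4.02 and 3.45 FPKM in knockdown replicates, against 2.40, 2.74 and 2.31 FPKM in controls. All 3 knockdown libraries lay above the controls, and the log2 fold change was 0.40 (SE 0.12, limma adjusted p = 0.998). Etfb, a subunit of the electron transfer flavoprotein, had 39.7, 43.7 and 38.2 FPKM in knockdown replicates, against 31.5, 36 and 31.2 FPKM in controls (log2 fold change 0.29, SE 0.10, limma adjusted p = 0.998). Its groups did not overlap either.

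The tricarboxylic acid cycle and pyruvate dehydrogenase list had 13 of 21 genes above 0 and 8 below, with 0 called and a median of 0.02. Idh3g, a subunit of isocitrate dehydrogenase, averaged 37.4 ± 3.3 FPKM in knockdown libraries and 32.3 ± 0.51 FPKM in controls (SD, n = 3 each). Pdhb, a subunit of pyruvate dehydrogenase, averaged 14.0 ± 1.2 FPKM in knockdown libraries and 11.7 ± 1.1 FPKM in controls. Neither passed the threshold. Regulators of mitochondrial biogenesis had 6 of 11 above 0 and 5 below with 0 called, Mterf3 averaging 2.46 ± 0.38 FPKM in knockdown libraries and 1.92 ± 0.31 FPKM in controls and Esrra 28.1 ± 1.8 FPKM in knockdown libraries and 25.6 ± 3.0 FPKM in controls. A list of outer membrane, import, carrier, fusion, cristae and prohibitin genes had 17 of 19 above 0, with a median of 0.05 and 0 called. No gene of these last 3 lists had an unadjusted limma p under 0.05. The exceptions among those 19 were Vdac1, the main channel of the outer membrane, at 86.3 ± 6.2 FPKM in knockdown libraries and 94.5 ± 0.72 FPKM in controls, and the import receptor Tomm20, at 12.1 ± 0.69 FPKM in knockdown libraries and 13.3 ± 0.56 FPKM in controls.

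Of the 13 protein genes of mitochondrial DNA 4 were in the table, mt-Nd1, mt-Nd2, mt-Co1 and mt-Co3, at 0 to 1.76 FPKM in any library. Only mt-Co3 was tested, with 1.37, 0.28 and 1.06 FPKM in knockdown replicates, against 1.76, 1.47 and 0.81 FPKM in controls, and its groups overlapped. Their sum lay between 1.82 and 3.18 FPKM in knockdown libraries and between 3.02 and 3.86 FPKM in controls. These levels are far under those of nuclear partners such as Cox5a, and the sources used here do not say how reads from the mitochondrial genome were handled, so the balance between the genomes cannot be read from these files.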

How the data were processed

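The authors deposited FPKM per gene (the unit is in the file headers) for 6 libraries, which were grouped by their titles. StringTie 1.2.2, HISAT2 2.0.4, cutadapt 1.17, FastQC 0.11.7, R 2.10.0 and the build mm9 appear in the submitters' processing notes. By identifier, GENCODE M21 held 9110 of the 9120 genes, 8377 with the same span on GRCm38 (53 of the 61 members), and that build is used for coordinates. The sources used here give neither library depth nor the rule by which reads were assigned to overlapping genes, copies or strands. Every listed gene averages over 0.5 FPKM in at least 1 group (lowest 0.501).

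From the deposited FPKM, genes of at least 1 FPKM in 3 or more of 6 libraries (8047) were kept, and limma 3.58.1 (R 4.3.3) was run on log2(FPKM + 1) with an intensity trend and two-sided tests, Benjamini-Hochberg adjustment over all genes tested and a threshold of 0.05. Such fold changes understate the change of low genes. The fit was also run on simulated data. These held no shift of replicate 3, so they cannot show how the fit performs on these libraries. Replicate 3 of both groups was also set against replicates 1 and 2, by the codes in the titles, with group in the fit. Copies were sought with blastn. Mettl3 had an exact permutation test.

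Whether replicate numbers pair libraries was checked from deviations from group means across genes: libraries of the same number correlated at 0.23, 0.20 and 0.56 (numbers 1 to 3), all above 0.1, but knockdown 1 with control 2 (0.26) and knockdown 2 with control 1 (0.23) did so too. The labels do not say what a number marks. A fit with the number as a replicate block called 0 genes, as did the fit without it.

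Named members are those listed at 0, the 5 per complex with the smallest knockdown p among those above 0 throughout, the 2 highest and 2 lowest in level, the 2 with the smallest p for replicate 3, and paralogue sets; other lists give the 2 tested genes with the smallest knockdown p. Nrf1, Gabpa, Ndufs4, Ndufaf6, Ndufa7, Ndufab1 and Ndufaf1 were named after their values were seen. So were the markers Actn4, Wt1, Synpo, S100a4, Acta2, Pdgfrb, Kirrel, Aqp1 and Csf1r. The members and lists were chosen with earlier results of these data known. Alternatives were another pseudocount (0.1), no filter, a filter at 5 FPKM, median-ratio scaling, zeros as missing, a robust variance without trend, the block, the code form as covariate, only the 4 HG-coded libraries, and leaving out each library. A gene of complex I is counted in the totals but not reported here by itself.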

Additional observations from a re-analysis of the deposited data

How the results depend on the processing

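Members called in knockdown against control stayed at 0 under all alternatives run. Over all genes the count was 0 and became 1 with a robust variance without trend, 2 with only the 4 HG-coded libraries, and 0 to 2 when a library was left out (2 without knockdown replicate 3, 2 without control replicate 2). With the replicate block 0 genes and 0 members were called, and unadjusted limma p lay under 0.05 for 3 members (5.45%, against 10.8% of all genes) in place of 2 (3.64%, against 4.55%). The complex I median stayed above 0 (0.02 to 0.10) and the complex IV median below 0 (-0.14 to -0.05) under every alternative fit, but the replicate 3 pair alone gave -0.10 for complex I and 0.02 for complex IV. Leaving out a library gave medians from 0.0199 to 0.0607 for all members, from 0.0234 to 0.0732 for complex I, and from -0.0413 to 0.0976 for complex III, whose median was 0.0928 with only the 4 HG-coded libraries. With those 4 libraries the members that changed sign included Uqcrb (0.13), Cox4i1 (-0.0558), Cox6b1 (-0.0145) and Atp5a1 (0.14). Among the others were Ndufs4 (-0.19 with all 6 libraries, 0.37 with those 4) and Sdhd (-0.07 and 0.78). Ndufab1 (-0.03 and 0.06) and Atp5g3 (0.004 and -0.06) changed sign as well. Leaving out a library changed the sign of, among others, Ndufb10 (-0.0105 to 0.208), Sdhb (-0.0565 to 0.0932), Cyc1 (-0.0034 to 0.128) and Uqcrb (-0.201 to 0.0976). It did so too for Uqcrc1 (-0.0717 to 0.055), Cox4i1 (-0.0518 to 0.296), Cox6b1 (-0.045 to 0.151), Atp5a1 (-0.579 to 0.0974) and Atp5k (-0.0048 to 0.142). None of these genes was called. For replicate 3 against the others, the members' median was 0.0267 with no filter, 0.0441 with median-ratio scaling and -0.0554 to 0.0458 without a library, against -0.0235, and members called ranged from 1 to 4 without a library. Sdhb (-0.0854 to 0.183) and Uqcrb (-0.527 to 0.103) changed sign there, and with scaling Atp5g1 was called (0.39, limma adjusted p = 0.0488). The cause of these changes was not tested. With 3 libraries a group and depth unknown, differences of the size seen here were mostly within the spread between libraries.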
